A study of Rattus norvegicus with 6 samples.

Results

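The genes of MHC class II antigen presentation were examined in rat liver after bromodichloromethane, a trihalomethane formed when drinking water is chlorinated. The set holds 10 genes, taken as the array probes whose RefSeq accessions belong to Cd74, Ciita, RT1-Da, RT1-Db1, RT1-Ba, RT1-Bb, RT1-DMa, RT1-DMb, Ctss and Cd86, among 15278 gene symbols on the array. All 10 had at least 1 probe, and 9 were bright enough to be measured. In treated livers the class II chains RT1-Da, RT1-Db1 and RT1-Bb and the invariant chain Cd74 were 1.72-fold to 1.87-fold higher than in corn oil livers, and the costimulator Cd86 was 1.49-fold higher. The regulator Ciita, the peptide editors RT1-DMa and RT1-DMb and the protease Ctss did not pass the test.

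Total liver RNA came from 6 male Sprague-Dawley (Crl:CD(SD)) rats bought at 5 weeks of age, with 1 one-colour Agilent array per animal. The control group was 3 rats given corn oil, and the treated group was 3 rats given bromodichloromethane at 200 mg/kg/day. The series' design text speaks of 28 days but the treatment protocol of 9 weeks, and which exposure is right could not be settled. Animals are called corn oil 1 to 3 and treated 1 to 3 by their replicate numbers.

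Class II molecules are paired alpha and beta chains that show peptides from swallowed proteins to helper T cells. The pair is built around the invariant chain Cd74, which blocks its groove until proteases such as cathepsin S trim it away and the DM molecules exchange the remnant for an antigenic peptide. Transcription of these genes depends on Ciita, a coactivator that binds no DNA itself and is recruited by factors on the X and Y boxes of the promoters. In liver the molecules are carried mainly by dendritic cells, Kupffer cells and B cells rather than by hepatocytes. The rat genes are named RT1: RT1-Da and RT1-Db1 are the alpha and beta chains of the D molecule, and RT1-Ba and RT1-Bb those of the B molecule.

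Upstream stretches of 5 members are shown first because the X and Y boxes are the elements through which Ciita acts. Windows of 300 bases, from 250 before to 50 after the annotated start, were taken from RefSeq on assembly GRCr8 and held 8 of the 10 members, without Ciita and RT1-DMb. They were searched on both strands for an X-type string, the letters AGNAAC and TG held apart by 3 free positions, and for the Y box letters ATTGG, which read CCAAT on the other strand. The strings do not overlap in the stretches below, which are written 5′ to 3′ on the gene's strand with the matches in capitals. The Cd74 stretch is chr18:56526976-56527045 on the plus strand and runs from 230 to 161 bases before the start. The other stretches run from 130 to 26 bases before the start, at chr20:4515285-4515389 on the plus strand for RT1-Da and, on the minus strand, at chr20:4560188-4560292 for RT1-Db1, chr20:4604144-4604248 for RT1-Bb and chr20:4712361-4712465 for RT1-DMa.
Cd74: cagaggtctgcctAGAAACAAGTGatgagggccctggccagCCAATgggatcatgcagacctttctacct
RT1-Da: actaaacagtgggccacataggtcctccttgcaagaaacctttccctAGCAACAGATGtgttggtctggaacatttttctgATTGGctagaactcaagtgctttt
RT1-Db1: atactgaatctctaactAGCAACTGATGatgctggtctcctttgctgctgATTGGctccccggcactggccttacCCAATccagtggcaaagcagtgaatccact
RT1-Bb: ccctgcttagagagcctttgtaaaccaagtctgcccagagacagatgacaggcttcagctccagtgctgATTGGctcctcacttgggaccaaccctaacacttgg
RT1-DMa: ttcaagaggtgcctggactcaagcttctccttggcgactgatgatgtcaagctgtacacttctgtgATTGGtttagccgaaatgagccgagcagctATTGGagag

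The X string lay in 3 of the 8 member windows, those of Cd74, RT1-Da and RT1-Db1, against 4.37% of all 33469 windows. In each of these a Y string followed, with the first letters of the strings 28 bases apart in Cd74, 34 in RT1-Da and 33 in RT1-Db1. The Y string alone is common, in 37.5% of all windows, and lay in 7 member windows, all but that of Cd86. Both strings were found in 1.71% of all windows, at any spacing. A Y string starting 1 to 40 bases after an X string, a limit not set in the plan, was in 0.33% of all windows and in 3 member windows. RT1-Ba had a Y string 43 bases before the start, RT1-Bb one at 61 and one at 172 on the opposite strand, RT1-DMa at 64 and 34, and Ctss one 18 bases after the start on the opposite strand. These are exact matches of letters, given as a description. An X box that departs from the string by any letter was not counted, so a window without the string may still hold one.

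**Figure D1:**
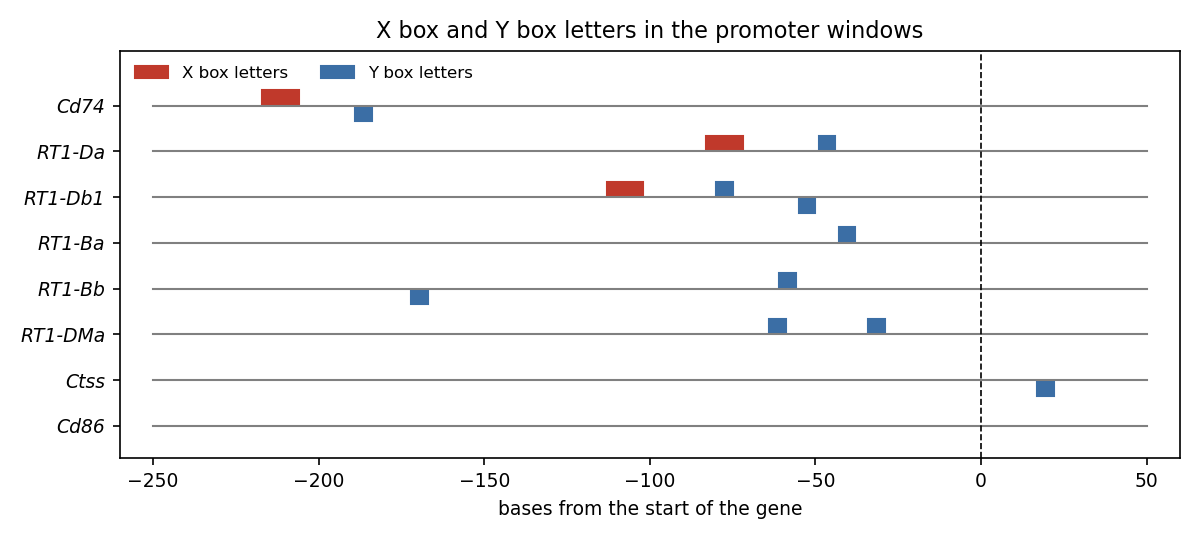
Position of the X (red) and Y (blue) strings in the 8 member windows, as bases from the annotated start (dashed line); boxes above a line are on the gene's strand and those below it on the opposite strand. Cd74, RT1-Da and RT1-Db1 held an X string with a Y string 28 to 34 bases downstream of it.

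Signals below are the processed fluorescence of a probe divided by the 75th percentile of its array, so that 1 is the level of a moderately bright probe. That percentile ranged from 670 to 825 fluorescence units, the share of probes well above background from 61.3% to 66.9%, and no non-control probe was saturated. Signals of different probes are not comparable as RNA levels, so each gene is compared only with itself. Groups were compared with limma over 28995 features, and a gene was called at a Benjamini-Hochberg adjusted p of 0.05. By that rule 9.36% of all features were called, 5.96% higher and 3.41% lower in treated livers, and in 18.4% every treated animal lay above every corn oil animal. Higher calls were 63.6% of calls, against 74.2% with arrays centred on the median and 97.6% with arrays scaled to spike-in controls. The median log2 difference of all features was 0.00 in the main scaling and 0.48 with spike-in scaling.

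Of the 9 measured members, 5 were higher by this test, 0 were lower and 4 were not called, against 5.96% of all features called higher. At an unadjusted p under 0.05, 8 were higher and 0 lower, but no share of all features at that threshold is given, here or below. All 9 had a mean difference above 0, with a median of 0.78 (log2), and in 8 of 9 the treated animals lay above all corn oil animals without overlap, against 18.4% of all features. The exception was Ctss. Of the 9, 8 were highest in treated 1 and 8 lowest in corn oil 3. With spike-in scaling all 9 were called and the median was 1.27, or 0.78 above the median of all features in that scaling.

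**Figure D2:**
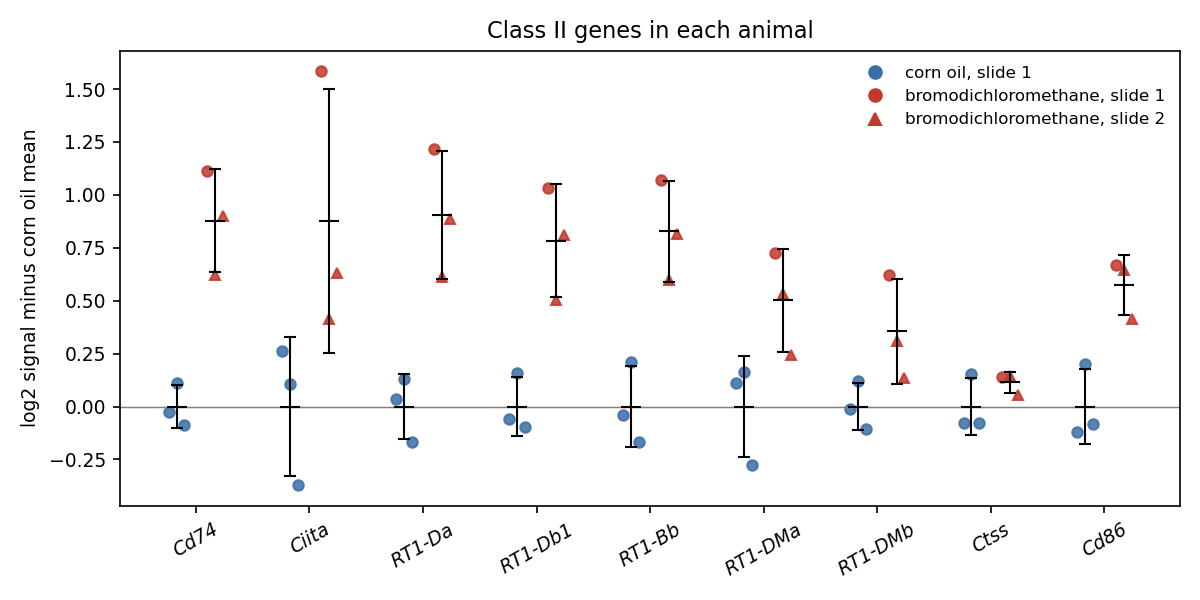
Log2 normalised signal of the 9 measured members in each of the 6 animals, minus the corn oil mean of that gene, with 1 point per animal and black bars for the group mean ± SD (n = 3); colour gives the group and the marker shape the slide. Corn oil and treated animals overlap for Ctss but not for the other members, and treated 1, the red circle, is the highest for all but Ctss.

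Ciita, the coactivator on which class II transcription depends, was dim. Its brighter probe read 0.154, 0.138 and 0.0992 in corn oil 1 to 3 and 0.384, 0.171 and 0.199 in treated 1 to 3. Treated 1 was far above the other treated animals, which lay only slightly above the highest corn oil animal. The mean was 0.130 ± 0.0281 (SD, n = 3) in corn oil and 0.251 ± 0.116 (SD, n = 3) in treated livers, a log2 difference of 0.88 with a standard error of 0.33 and a limma adjusted p of 0.154. The 95% interval ran from 0.07 to 1.68. A second Ciita probe gave 1.09 with an adjusted p of 0.055 when every probe was fitted on its own. Without treated 1 the difference of the brighter probe was 0.52, and on the slide that holds treated 1 with the controls it was 1.58.

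Cd74 encodes the invariant chain, the chaperone of newly made class II pairs. It read 14.0, 15.4 and 13.4 in corn oil 1 to 3 and 30.8, 22.0 and 26.6 in treated 1 to 3. Every treated animal was well above every corn oil animal, and the treated animals were the more spread. Means were 14.3 ± 1.02 (SD, n = 3) and 26.4 ± 4.41 (SD, n = 3), a 1.84-fold rise with a log2 difference of 0.88, a standard error of 0.14 and a limma adjusted p of 0.022. The 95% interval of the log2 difference ran from 0.53 to 1.22.

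RT1-Da, the alpha chain of the D molecule, read 5.23, 5.58 and 4.53 in corn oil 1 to 3 and 11.8, 7.79 and 9.42 in treated 1 to 3. The groups did not overlap, and treated 1 was again the highest and corn oil 3 the lowest. The means were 5.11 ± 0.534 (SD, n = 3) and 9.68 ± 2.04 (SD, n = 3), a rise of 1.87-fold. The log2 difference was 0.91 with a standard error of 0.17 and a limma adjusted p of 0.031.

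RT1-Db1, its beta chain partner, read 3.99, 4.63 and 3.88 in corn oil 1 to 3 and 8.51, 5.89 and 7.29 in treated 1 to 3. The order of the treated animals was that of RT1-Da and Cd74, with treated 2 the lowest. The rise was 1.72-fold, from 4.17 ± 0.406 to 7.23 ± 1.31 (SD, n = 3 each), with a log2 difference of 0.78, a standard error of 0.16 and a limma adjusted p of 0.035. RT1-Db1 has a close relative, RT1-Db2, whose transcripts its probes could share, so the split between them is uncertain. RT1-Db2 differed by 0.76 (adjusted p 0.066). It was named after its values were seen.

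RT1-Bb, the beta chain of the B molecule, read 5.41, 6.43 and 4.95 in corn oil 1 to 3 and 11.7, 8.42 and 9.79 in treated 1 to 3. The groups did not overlap. The mean rose 1.77-fold, from 5.60 ± 0.759 to 9.96 ± 1.64 (SD, n = 3 each), with a log2 difference of 0.83, a standard error of 0.16 and a limma adjusted p of 0.032. Its alpha chain partner RT1-Ba could not be followed: on none of the 6 arrays was its only probe well above background, and the same held for 1 of the 3 RT1-Bb probes.

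These chain genes and Cd74 moved in nearly the same pattern across the animals. Likeness was taken as the root mean square difference between 2 genes' centred log2 profiles over the 6 arrays, and all 11398 other measured symbols were ranked by it against Cd74. RT1-Db1 was the nearest of all at 0.0548, RT1-Da the second at 0.0595 and RT1-Bb the third at 0.0609. The nearest genes outside the set were Lcp1, the actin bundler of leukocytes, at 0.0788 and Clec12a, a lectin receptor of myeloid cells, at 0.0805. Ceacam19 at 0.1004, LOC690045 at 0.107 and Nrg2, a neuregulin growth factor, at 0.110 followed. The other members stood far lower, with Cd86 at rank 181, RT1-DMa at 355, Ciita at 511, RT1-DMb at 545 and Ctss at 2473. The measure takes in the difference between the groups as well as the spread within them, so it is no test.

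RT1-DMa and RT1-DMb encode the chains of DM, which edits the peptides held by class II molecules. RT1-DMa read 2.32, 2.41 and 1.78 in corn oil 1 to 3 and 3.56, 3.11 and 2.55 in treated 1 to 3, and RT1-DMb read 1.93, 2.12 and 1.81 against 3.01, 2.42 and 2.14. Neither gene overlapped between groups, but treated 3 lay close to corn oil 2 in both. RT1-DMa had means of 2.17 ± 0.342 and 3.07 ± 0.507 (SD, n = 3 each) and a log2 difference of 0.50 (limma adjusted p 0.127, 95% interval 0.08 to 0.92). RT1-DMb had means of 1.96 ± 0.154 and 2.52 ± 0.443 (SD, n = 3 each) and a difference of 0.36 (limma adjusted p 0.182), or 0.22 without treated 1 and 0.62 on slide 1 alone.
The order among treated animals also differed from that of the chain genes, with treated 3 instead of treated 2 the lowest.

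Ctss, the lysosomal protease that trims the invariant chain, read 13.7, 16.1 and 13.7 in corn oil 1 to 3 and 16.0, 16.0 and 15.05 in treated 1 to 3. Corn oil 2 was the highest animal of all, so the groups overlapped. Means were 14.5 ± 1.38 and 15.7 ± 0.544 (SD, n = 3 each), and the log2 difference was 0.11 (limma adjusted p 0.504), or 0.08 to 0.19 with 1 animal left out. Its 95% interval, -0.13 to 0.36, lay below that of Cd74, though the difference between the genes was not tested.

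Cd86, a B7 ligand through which presenting cells costimulate T cells, read 0.0466, 0.0583 and 0.0478 in corn oil 1 to 3 and 0.0804, 0.0793 and 0.0674 in treated 1 to 3. The groups did not overlap. The mean rose 1.49-fold, from 0.0509 ± 0.00643 to 0.0757 ± 0.00719 (SD, n = 3 each), with a log2 difference of 0.58, a standard error of 0.13 and a limma adjusted p of 0.045. Its single probe was dim, at 31.2 to 66.4 fluorescence units against a lowest well-above-background signal of 12.7 to 21.7. After normexp background correction, whose offset of 50 units is as large as these signals, the difference was 0.07 (adjusted p 0.61).

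The 9 measured members were covered by 18 usable probes, of which 9 are those given above and 9 are other probes of 6 of the genes. All 18 differed above 0, and in 16, 8 of them other probes, every treated animal lay above every corn oil animal, against 18.1% of all 39027 probes. With every probe fitted on its own 8 of the 18 were called, against 8.52% of all probes. Of the 9 other probes 3 were called, all of RT1-Db1, while the second RT1-Da probe (0.75, adjusted p 0.055) and the second RT1-Bb probe (0.77, adjusted p 0.072) were not. The 9 probes of RT1-Da, RT1-Db1 and RT1-Bb lay between 0.72 and 1.07, and 6 of them were called. Probes of 1 gene share their target and are no replicates.

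**Figure D3:**
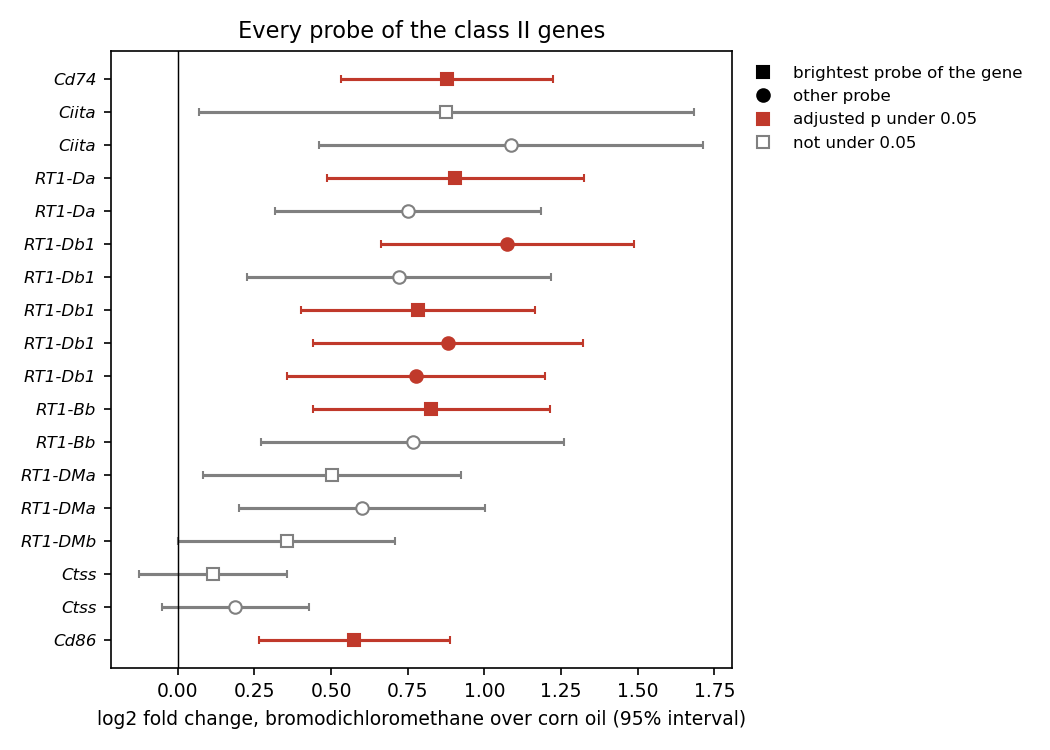
Log2 fold change, bromodichloromethane over corn oil, of each of the 18 usable member probes with its 95% interval, each fitted on its own; squares are the brightest probe of a gene, circles its others, and filled markers have an adjusted p under 0.05. All lie above 0, those of Ctss nearest to it and those of the D and B chains between 0.72 and 1.07.

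Most calls were lost when an animal was left out. Leaving out 1 animal at a time gave 30 fits of the 5 called genes, with limma adjusted p from 0.044 to 0.144. Only 2 of these fits were past the threshold, both for Cd74 (without treated 1, 0.049, and without treated 2, 0.044). All 30 differences were above 0, which was fixed beforehand because the groups did not overlap for any of the 5 genes. Treated 1 shared slide 1 with the 3 controls, while treated 2 and 3 were alone on slide 2. Without treated 1 the 5 genes differed by 0.53 to 0.76 (limma adjusted p 0.049 to 0.103). In that fit all treated animals were on slide 2 and all controls on slide 1, so slide and treatment cannot be told apart. On slide 1 alone, and with slide as a block, the 5 genes differed by 0.67 to 1.22. Both are the same contrast of treated 1 alone with the controls, since slide 2 held no control. With slide as a block their adjusted p was 0.059 to 0.134.

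**Figure D4:**
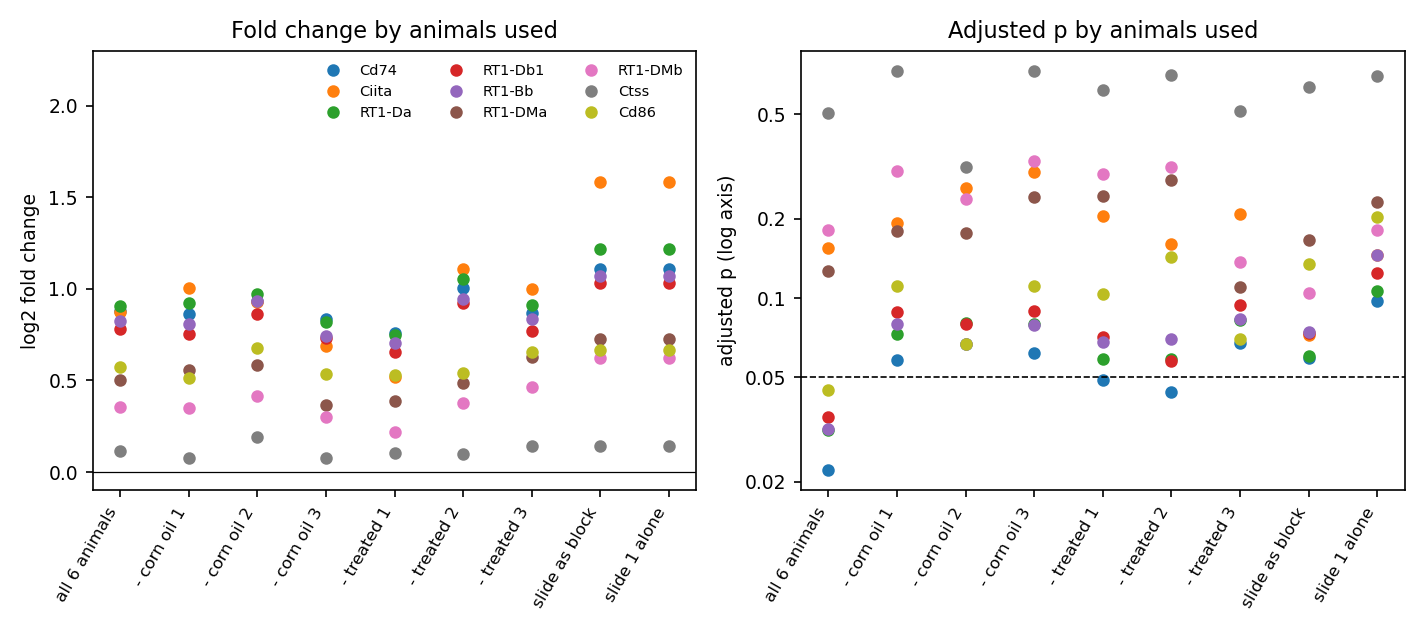
Log2 fold change, treated over corn oil (left), and limma adjusted p on a log axis (right) of each measured member with all 6 animals, with each animal left out in turn, with slide as a block and on slide 1 alone; the dashed line is the 0.05 threshold. All fold changes lie above 0, and those of Ciita run from 0.52 without treated 1 to 1.58 on slide 1. Among the fits with an animal left out only Cd74 lies below the line, without treated 1 or treated 2. Without treated 1, all treated animals are on slide 2 and all controls on slide 1. Slide as a block and slide 1 alone give the same fold changes.

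The lists that follow are described over the genes that were well above background in all 6 animals, as were the 9 members. The lists are short, so 1 call in a list is no result about the list. Their calls are as sensitive as those of the members: of 23 genes called and named outside the set, 2 stayed called with slide as a block, 0 on slide 1 alone and 3 to 8 with an animal left out.

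Of 15 genes that make and load class II peptides (cathepsins, the thiol reductase Ifi30, trafficking factors and others) 14 were so measured. By the test 1 was higher, near the 5.96% of all features, and 0 were lower, 4 had an unadjusted p under 0.05, and the median log2 difference was 0.07. The gene called was Ctsz, a lysosomal carboxypeptidase, at 2.07, 2.14 and 2.33 in corn oil 1 to 3 and 3.37, 3.17 and 2.78 in treated 1 to 3. Every treated animal was above the controls, with a difference of 0.51 (limma adjusted p 0.039).

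Regulators of class II genes and interferon gamma signalling, through which Ciita is classically induced, held 17 measured genes of 20. Ifng itself, Irf4 and Socs1 were not bright enough. By the test 3 were higher, against 5.96% of all features, and 0 lower, with a median of 0.09. Irf1, an interferon-induced factor that acts on the Ciita gene, read 7.09, 9.49 and 7.02 in corn oil 1 to 3 and 20.9, 21.2 and 14.0 in treated 1 to 3. All treated animals stood clear of the controls, and the log2 difference was 1.24 (SE 0.21, limma adjusted p 0.023). Ifngr2, a chain of the interferon gamma receptor, differed by 0.49 (adjusted p 0.040) and Spi1, the myeloid and B cell factor PU.1, by 0.47 (adjusted p 0.043).

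The MHC class I pathway, which shows peptides made inside the cell, had 12 measured genes of 14. By the test 1 was higher, against 5.96% of all features, and 1 lower, against 3.41%, with a median of 0.02. Tapbp, which links class I molecules to the peptide transporter, differed by 0.38 (adjusted p 0.037). Calr, a chaperone of the endoplasmic reticulum, differed by -0.39 (adjusted p 0.036), but by 0.09 with spike-in scaling.

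Among other costimulatory and inhibitory ligands, 4 of 10 were measured. Of these 1 was higher, against 5.96% of all features, 0 were lower and the median was 0.22. Icam1, an adhesion molecule that binds T cells, was higher by 0.62 (adjusted p 0.048). Cd80, the other B7 ligand, was not bright enough. Of 7 T cell partners of these molecules 3 were measured and 0 were called by limma, 1 having an unadjusted p under 0.05. Lag3, an inhibitory class II receptor, differed by -0.61 (adjusted p 0.084). Icos, well above background in only 2 of the 3 corn oil animals, differed by 0.71 (adjusted p 0.149).

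**Figure D5:**
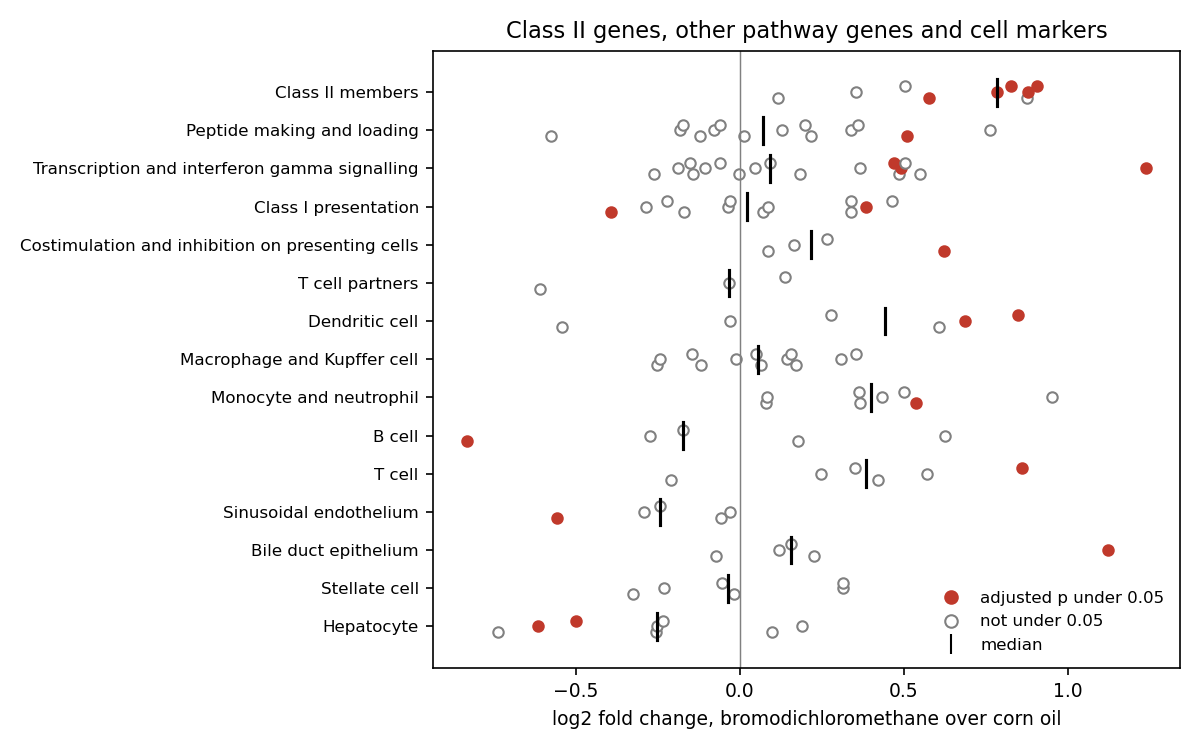
Log2 fold change, bromodichloromethane over corn oil, of each gene well above background in all 6 animals, for the class II set, 5 related pathway lists and 9 cell type marker lists, with a black bar at each median and filled points for genes with a limma adjusted p under 0.05. The class II median of 0.78 lies above those of the other lists, which run from -0.25 for hepatocyte to 0.44 for dendritic cell markers.

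In whole liver, more cells of a type and more RNA per cell cannot be told apart, so markers of the cells that carry class II are given beside the members. Their summed signals describe each animal only, since the brightest probes weigh most in a sum. Of 11 dendritic cell markers 6 were measured in all animals, 2 were higher, against 5.96% of all features, 0 were lower and the median was 0.44. The sum was 1.75 to 2.07 in corn oil and 2.84 to 3.11 in treated livers. Cd83 weighed most in it, with a mean of 0.957 in corn oil and 1.72 in treated livers. Cd83, a marker of mature dendritic cells, read 1.07, 0.939 and 0.859 against 1.78, 1.70 and 1.67, without overlap, and differed by 0.85 (limma adjusted p 0.014). Cd209a, a lectin of monocyte-derived dendritic cells, differed by 0.69 (adjusted p 0.018), but its probe was as dim as that of Cd86 and gave 0.09 (adjusted p 0.571) after normexp correction. The remaining markers measured in all animals were named after their values were seen, and none was called. Zbtb46 differed by -0.54 (limma adjusted p 0.113) and Clec9a by -0.03 (adjusted p 0.867). Batf3 differed by 0.28 (adjusted p 0.119) and Clec10a by 0.61 (adjusted p 0.066). The groups did not overlap for Zbtb46, Batf3 and Clec10a.

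Of 13 macrophage and Kupffer cell markers 12 were measured, 0 were called by limma, 2 had an unadjusted p under 0.05, and the median was 0.06. Their sums overlapped, at 218 to 274 and 217 to 266, and 4 single markers did not. Of these 2 were higher, against 18.4% of all features, and 2 lower, for which no share is given. Cd68 differed by 0.31 (adjusted p 0.156), and Mrc1, the mannose receptor, by -0.25 (adjusted p 0.130) but by 0.23 with spike-in scaling. Of 10 monocyte and neutrophil markers 8 were measured in all animals, with sums of 37.9 to 46.5 and 48.7 to 56.8. These sums were mostly Lyz2, named for that weight, which differed by 0.36 and was not called (limma adjusted p 0.165). By the test 1 was higher, against 5.96% of all features, 0 were lower and the median was 0.40. The higher gene was Ly86, by 0.54 (adjusted p 0.026).

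Of 10 B cell markers 5 were measured in all animals. By the test 1 was lower, against 3.41% of all features, 0 were higher, and the median was -0.17. The lower gene was Pax5, the B lineage factor, at -0.83 (adjusted p 0.0084), or -0.35 (adjusted p 0.104) with spike-in scaling. The sums, 2.36 to 2.86 in corn oil and 1.72 to 1.92 in treated livers, were mostly Pax5, whose mean was 1.81 and 1.01. Ms4a1 and Cd79a, defining B cell genes, had no probe named here.
Of 10 T cell markers 6 were measured in all animals, with sums of 1.67 to 1.79 and 1.96 to 2.43. By the test 1 was higher, against 5.96% of all features, 0 were lower and the median was 0.39. The higher gene was Cd8b, at 0.86 (adjusted p 0.021). Cd2 and Cd3e were not well above background in any corn oil animal and entered the test only through the treated group. Against the lowest signal that was, Cd2 was at least 1.47-fold higher and Cd3e at least 1.33-fold higher. The limma adjusted p of 0.038 for Cd2 and 0.026 for Cd3e belong to the full differences, not to these bounds. With that selection they are no support. After normexp correction the log2 differences were 0.23 (adjusted p 0.133) for Cd2 and 0.10 (adjusted p 0.502) for Cd3e.
The 8 hepatocyte markers summed to 2711 to 2982 in corn oil and 2205 to 2550 in treated livers. The part of these cell types in the class II differences was not tested.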

How the data were processed

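Liver RNA of 6 separate animals, per the labels, was hybridised to 1-colour Agilent arrays. The submitters' processing notes name Agilent Feature Extraction 10.7. The scanner output deposited for each array is linear intensity, which per the file headers is background-subtracted, with no scaling between arrays. The deposited value table is a ratio: judged by its values, processed signal over the array's 75th percentile (at least 96.4% of probes within 1%; column medians 0.0953 to 0.102), uncentred per gene. It served as an alternative.

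From the intensities, log2 values minus the 75th percentile of each array were computed. Controls and 27 probes marked as outliers were left out. Of 61657 probes, 27447 (44.5%) matched 1 RefSeq symbol through their accession, 0 several and 34210 none. Kept probes were well above background in every animal of one group or the other. The brightest probe stood for a gene, leaving 28995 features. Groups were compared with limma 3.58.1 (lmFit and eBayes, R 4.3.3), by two-sided tests. Each adjusted p is Benjamini-Hochberg adjusted over all features of its own fit. The fit of every probe on its own had 39027 probes, and the fit with no filter on dim probes 45862 features. The script was tested on simulated data. The number of arrays limits the precision. A bound ("at least") sets the brighter group's mean against, per dimmer array, the higher of the lowest well-above-background signal and the probe's own.

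Members and lists were chosen with earlier results of these data known. Named genes were the members, up to 4 called genes with the largest change per list (or the 2 of smallest p), and the 5 symbols most like Cd74. List counts, medians and sums cover genes well above background on all 6 arrays, a rule set after values were seen. The alternatives were normexp, quantile, median and spike-in scaling, other filters and probe rules, trend and robust options, the value table, slide or replicate number as a block, slide 1 alone and each animal left out. The files give no mean signal, so normexp used the median signal, a departure from the plan.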

Additional observations from a re-analysis of the deposited data

How the results depend on the processing

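The 9 measured members differed above 0 in all 180 member values over 20 alternatives, but fewer of them were called under several. The 180 values are not separate checks, since several alternatives leave the difference of a gene as it was. For the 8 members without overlap between groups, leaving out an animal could not change the sign. Against 5 members and 2715 features called, spike-in scaling called 9 and 13249, no filter on dim probes 0 and 609, slide as a fixed block 0 and 350, slide 1 alone 0 and 120, and leaving out 1 animal 0 to 1 and 335 to 1232. At an unadjusted p under 0.05, 7 members were higher without the filter, 8 with the slide block, 8 on slide 1 and 5 to 8 with 1 animal left out. With no share of all features at that threshold beside them, these counts do not show that the result held where calls were lost. The other 9 alternatives without a replicate block called 4 or 5. The member median of 0.78 was 1.27 with spike-in scaling, 1.03 with the slide block, 1.03 on slide 1 and 0.53 to 0.92 with 1 animal left out. Of 23 called genes named outside the set 4 stayed called without the filter and 1 with the replicate block. Spike-in scaling reversed Calr (0.0886), Mrc1 (0.23) and Reln (0.16), by a shift of all features. With the replicate block 0 members (7 unadjusted) and 353 features were called. Same-numbered animals correlated at 0.019 to 0.117 in their deviations, not all over 0.1, so the numbers were not taken as pairs, although 6 of 6 arrays correlated best with their own number. Except where construction shows it (fewer samples, more features tested), the cause was not tested. Dim probes such as those of Cd86 and Ciita are limited by background.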

Other observations

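A few markers of liver cells that do not chiefly present antigen were called, against 9.36% of all features. Of 5 measured bile duct markers 1 was called, Epcam, an adhesion molecule of bile duct cells, higher by 1.12 (log2, limma adjusted p 0.021), and the median was 0.16. Their sums of 1.91 to 2.09 in corn oil and 2.71 to 3.89 in treated livers were largely Epcam, whose mean was 1.05 and 2.27. Of 5 measured sinusoidal endothelial markers 1 was lower, Lyve1, a hyaluronan receptor, at -0.56 (adjusted p 0.030) but -0.07 with spike-in scaling. The sums were 70.7 to 72.1 and 58.3 to 62.0, and the median was -0.24. Among 8 hepatocyte markers, with a median of -0.25, 2 were lower. Cps1, which feeds ammonia into the urea cycle, was at -0.62 (adjusted p 0.027) but -0.13 with spike-in scaling, and Serpina1, the secreted protease inhibitor, at -0.50 (adjusted p 0.023) but -0.02. None of these 3 lower calls was past the threshold with spike-in scaling, which shifted the median of all features to 0.48. Of 6 stellate cell markers 0 were called by limma and 1 had an unadjusted p under 0.05. Reln differed by -0.33 (adjusted p 0.175), or 0.16 with spike-in scaling, and Des by 0.31 (adjusted p 0.193).

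The genes outside the set with profiles most like that of Cd74 had differences near those of the class II chains. Lcp1 differed by 0.84 (limma adjusted p 0.015), Clec12a by 0.84 (0.018), Ceacam19 by 1.00 (0.022), LOC690045 by 0.92 (0.023) and Nrg2 by 0.86 (0.0094). They were chosen for that likeness, which includes the difference between groups, so these values are a description.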
